A study of Mus musculus with 13 samples.

Results

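The receptors for serotonin, dopamine, noradrenaline, acetylcholine and histamine were followed through the cells of the medial amygdala of mice, part of the forebrain circuit for social signals. Members were all genes of the deposited table with a symbol of the Htr, Drd, Adra, Adrb, Chrm, Chrn or Hrh families (the Htra proteases were left out), which gave 35 of 16961 genes. They comprised 12 serotonin, 3 dopamine, 7 adrenergic, 5 muscarinic, 5 nicotinic and 3 histamine receptor genes, and Drd1a is the table's older symbol for Drd1. Single cells came from naive C57BL/6J mice with no other treatment, as 6 male libraries (replicates 3 and 5 aged 8 weeks, the others 9 weeks) and 7 female libraries (replicate 3 aged 8 weeks, the others 9 weeks). All mice had been housed singly for at least 1 day. They were profiled by Drop-seq, which tags each captured mRNA with a molecular identifier (UMI) so that molecules can be counted, after dissociation by Act-seq, which blocks transcription while cells are released. The study asks how this region differs between the sexes, and the receptors were also compared between the authors' 8 cell classes and between neurons with the vesicular GABA transporter Slc32a1 and neurons with the vesicular glutamate transporter Slc17a6.

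These transmitters are mostly released by long-range axons from small cell groups outside the amygdala, and what a cell does on their arrival depends on the receptors it carries. Receptors that couple to Gs raise cyclic AMP, those that couple to Gi lower it and often open potassium channels, and those that couple to Gq release calcium from internal stores. The nicotinic subunits and Htr3a instead form ion channels that open on binding acetylcholine or serotonin.

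After filtering, 24527 cells remained (11542 male and 12985 female), with 3718151 to 7874074 UMIs per library, and 19 cell barcodes occurred in more than 1 library. The authors' classes held 3615 neurons, 6445 astrocytes, 3887 oligodendrocytes, 4163 oligodendrocyte precursors, 463 newly formed oligodendrocytes, 3727 microglia, 1463 endothelial and 764 mural cells. All 39 markers of a list of textbook class markers had their highest level in the class they mark. Levels below are CPM, the UMIs of a gene per 1000000 UMIs of a class in a library, given as mean ± SD over libraries. Since animals are not named in the labels, a p-value here reflects how much the libraries vary, part of which may be technical variation.

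Neurons carried most of the receptor genes. Of 33 members with at least 50 UMIs, 23 had their highest mean in neurons, where 17.7% of all 15867 such genes peaked. Astrocytes, oligodendrocyte precursors and microglia held the peak of 3 members each (10.5%, 17.4% and 14.4% of all genes), endothelial cells of 1 (11.5%), and oligodendrocytes, newly formed oligodendrocytes and mural cells of 0 (6.20%, 11.6% and 10.7%). The highest class lay above every other class in all 13 libraries for 20 of the 33 members, against 28.0% of all genes, and in 17 of these 20 that class was neurons, against 7.12% of all genes. The other 3 were spread over astrocytes (Hrh1, against 3.58% of all genes), precursors (Chrna4, against 2.09%) and microglia (1 member, against 5.35%), with 0 in oligodendrocytes (2.60%), newly formed oligodendrocytes (1.51%), endothelial cells (3.31%) and mural cells (2.48%). The classes were drawn by the authors from the same cells, so these counts are a description without a test. Summed over the 35 members, neurons held 1168 ± 146 CPM, oligodendrocyte precursors 282 ± 20.6, astrocytes 221 ± 20.6, microglia 185 ± 25.0 and mature oligodendrocytes 7.97 ± 3.48 CPM (SD, n = 13 libraries).

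**Figure D1:**
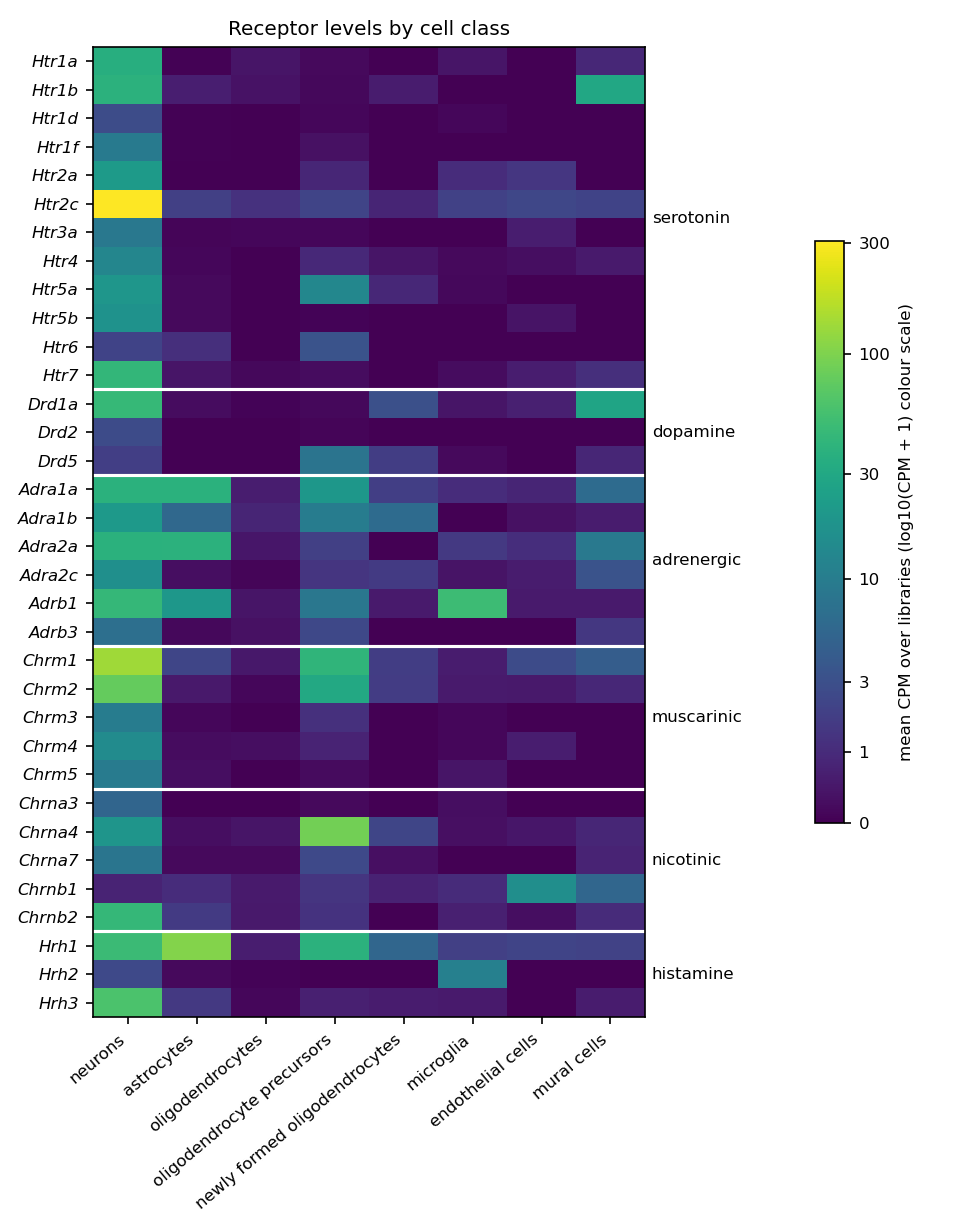
Mean CPM over 13 libraries of receptor genes (rows, by family) in the authors' 8 classes (columns), on a log10(CPM + 1) colour scale. Most rows are brightest in neurons, and Hrh1, Adra1a and Adra2a in astrocytes, Chrna4 in oligodendrocyte precursors and Adrb1 in microglia stand out among other classes.

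Of the serotonin receptors, Htr2c, a Gq-coupled receptor of the X chromosome (146962513 to 147197277 on GRCm38), gave 3544 of the 13436 receptor UMIs in neurons (26.4%). UMI counts give the captured molecules behind each value and are not meant to rank the genes. Htr2c had 243.7, 313 and 355 CPM as lowest, median and highest in the neurons of 6 male libraries, and 248, 311 and 378 CPM in those of 7 female libraries. The next class, endothelial cells, had 2.36 CPM. An Htr2c UMI was seen in 30.5% of neurons and in 0.357% of astrocytes, at median depths of 1755 and 1810 UMIs, and in 21.2% and 0.112% once every cell was thinned to 1000 UMIs.

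Htr7, a Gs-coupled receptor, had 34.8, 46.4 and 67.1 CPM in male neurons and 30.6, 36.8 and 55.2 CPM in female neurons as lowest, median and highest. The Gi-coupled Htr1b, known as a brake on transmitter release from axon terminals, had 28.4, 46.4 and 56.6 CPM in male neurons and 8.29, 39.7 and 53.8 CPM in female neurons. The ranges of the sexes overlapped for both genes, and female replicate 1 was the lowest library for Htr1b. Over 13 libraries, neurons also held the Gi-coupled Htr1a (35.3 ± 10.3 CPM), Htr5a (19.3 ± 5.06) and Htr1f (9.59 ± 3.80), the Gq-coupled Htr2a (21.6 ± 9.20), the Gs-coupled Htr4 (12.9 ± 4.34) and the ion channel subunit Htr3a (8.92 ± 5.88). Htr5b, a receptor that rodents retain, had 17.5 ± 12.0 CPM. Of the Htr3a UMIs, 47.6% came from 10 cells. Htr1d (Gi) had 30 UMIs in neurons, and Htr6 (Gs) had 24 in neurons and 39 in oligodendrocyte precursors.

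Mural cells, the pericytes and smooth muscle of vessels, were the second class of Htr1b, with 29.9 ± 16.4 CPM from 49 UMIs in 40 of 764 cells, and their level passed that of neurons in 5 of 13 libraries. They were also the second class of Drd1a, the Gs-coupled dopamine receptor, with 27.2 ± 14.5 CPM from 46 UMIs. In a split added after these values had been seen, mural cells with an UMI of smooth muscle actin (Acta2, 331 cells) held 51.6 CPM of Htr1b and 45.3 CPM of Drd1a over pooled libraries (95% counting intervals 38.2 to 68.2 and 32.8 to 61.0). Mural cells without Acta2 (433 cells) held 0 Htr1b UMIs (95% counting interval 0 to 5.07 CPM) and 4.12 CPM of Drd1a (0.851 to 12.0). The adrenergic receptors Adra2a (13 UMIs) and Adra1a (10 UMIs) were split the other way, with 0 UMIs in mural cells with Acta2 and 17.9 and 13.7 CPM in those without.

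**Figure D2:**
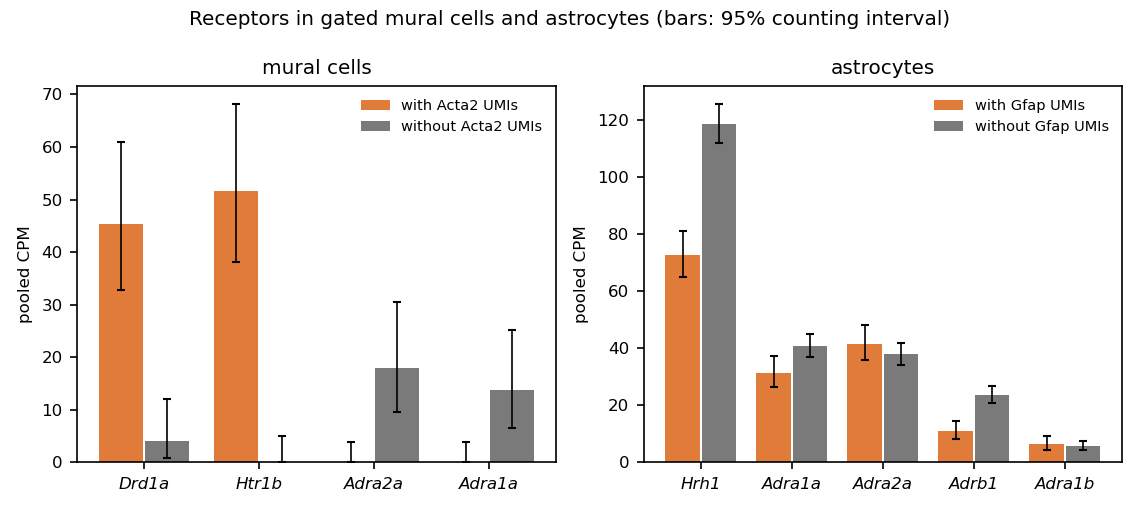
Pooled CPM (y axis, with 95% exact Poisson counting intervals) of receptors in mural cells with and without Acta2 UMIs and in astrocytes with and without Gfap UMIs. Htr1b and Drd1a stand at 51.6 and 45.3 CPM in mural cells with Acta2, above the intervals of those without, and Hrh1 is lower in astrocytes with Gfap.

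Neuronal Drd1a had 30.5, 38.2 and 49.2 CPM as lowest, median and highest in male libraries and 42.8, 51.9 and 61.2 CPM in female libraries. The lowest female library thus lay below the highest male library, and the ranges overlapped. Drd5, the other Gs-coupled dopamine receptor, peaked in oligodendrocyte precursors with 8.02 ± 3.23 CPM, against 1.89 ± 2.13 CPM in neurons. The Gi-coupled Drd2 had 31 UMIs in neurons and at most 1 in any other class.

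The adrenergic receptors, which answer to noradrenaline, were spread over neurons and glia. Adrb1, a Gs-coupled receptor, stood almost level in 2 classes, with 49.4 ± 16.9 CPM in microglia and 44.2 ± 8.46 CPM in neurons, and microglia were the higher class in 6 of 13 libraries. In neurons Adrb1 had 31.5, 42.2 and 49.3 CPM in male libraries and 35.8, 44.5 and 59.9 CPM in female libraries as lowest, median and highest, and the sexes overlapped. Adrb3 had 79 UMIs in neurons.

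Adra1a, a Gq-coupled receptor, and Adra2a, a Gi-coupled one, were as high in astrocytes as in neurons. Adra1a had 37.8 ± 10.7 CPM in astrocytes and 37.5 ± 10.8 CPM in neurons, and Adra2a 38.9 ± 6.39 and 37.7 ± 11.6 CPM in the same order, so both gaps were smaller than the spread between libraries. Adra1a also reached 19.6 ± 5.32 CPM in oligodendrocyte precursors, where Adra2a had 1.98 ± 1.33 CPM. The Gq-coupled Adra1b (21.2 ± 11.1 CPM) and the Gi-coupled Adra2c (16.1 ± 5.58 CPM) were highest in neurons.

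Chrm1, the Gq-coupled muscarinic receptor, had 94.6, 129 and 151 CPM as lowest, median and highest in male neurons and 101, 140 and 184 CPM in female neurons. Oligodendrocyte precursors came next with 41.0 ± 10.7 CPM. The Gi-coupled Chrm2 had 36.8, 57.0 and 155 CPM in male neurons and 43.3, 72.8 and 125 CPM in female neurons, and 30.6 ± 11.2 CPM in precursors. Its UMIs were concentrated, since 10 cells gave 24.3% of them and a single neuron held 56, and male replicates 2 and 5 and female replicate 7 had the highest levels. Neurons also held the Gi-coupled Chrm4 (14.7 ± 4 CPM) and the Gq-coupled Chrm3 (9.98 ± 3.95) and Chrm5 (9.86 ± 4.07).

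Chrna4 and Chrnb2 encode the subunits that together form the main high-affinity nicotinic receptor of the brain, and they peaked in different classes. Chrna4 had 81.2, 94.2 and 116 CPM as lowest, median and highest in male oligodendrocyte precursors and 59.1, 83.8 and 99.1 CPM in female ones, against 18.8 ± 5.21 CPM in neurons, and precursors were above neurons in all 13 libraries. Chrnb2 had 39.2, 46.4 and 65.9 CPM in male neurons and 24.1, 44.9 and 54.3 CPM in female neurons, against 1.30 ± 1.49 CPM in precursors. A Chrna4 UMI was seen in 20.9% of precursors and 0.154% of oligodendrocytes, at median depths of 2669 and 3182 UMIs. Of the other nicotinic subunits, Chrna7 had 91 and Chrna3 63 UMIs in neurons, and Chrnb1, the muscle subunit, had 50 UMIs in endothelial cells (15.9 ± 6.33 CPM).

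Histamine receptors divided by cell class. Hrh1, a Gq-coupled receptor, had 101, 110.1 and 143 CPM as lowest, median and highest in male astrocytes and 86.3, 99.4 and 110.1 CPM in female astrocytes. It stood at 48.7 ± 10.8 CPM in neurons, with 25.2, 46.9 and 61.9 CPM in male libraries and 42.2, 51.6 and 61.1 CPM in female libraries, and at 38.2 ± 7.12 CPM in oligodendrocyte precursors. Astrocytes were the highest class in all 13 libraries, and an Hrh1 UMI was seen in 18.2% of them against 0.349% of microglia at a similar depth. Hrh2, a Gs-coupled receptor, peaked in microglia (11.01 ± 4.96 CPM, 86 UMIs), and Hrh3, the Gi-coupled receptor known for limiting transmitter release, in neurons. Hrh3 had 46.3, 62.7 and 77.3 CPM in male neurons and 46.6, 52.5 and 76.6 CPM in female neurons, against 1.58 ± 1.45 CPM in astrocytes.

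Dissociated tissue releases free RNA that gives every droplet some neuronal UMIs, so the receptors of other classes were set beside 7 neuron markers measured in the same way. In astrocytes the markers stood at 0.610% to 4.21% of their level in neurons, while Hrh1 stood at 217%, Adra2a at 107%, Adra1a at 97.9%, Adrb1 at 45.0% and Adra1b at 27.0%. In microglia the markers reached 4.94%, against 111% for Adrb1 and 411% for Hrh2, and in mural cells 5.51%, against 61.4% for Drd1a and 73.9% for Htr1b. In oligodendrocyte precursors the markers reached 35.5%, the value of Tubb3, with a median of 6.23%. Chrna4 (478%), Drd5 (390%), Hrh1 (80.4%), Htr5a (67.8%), Adra1a (49.5%), Adra1b (46.6%) and Chrm2 (36.2%) lay above all 7, and Chrm1 lay below Tubb3. Chrm2 was above Tubb3 by a small margin only. Setting Chrm2 apart from Chrm1 thus rests on the value of Tubb3, and the part of free RNA in either was not tested.

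Within astrocytes, a split on Gfap, the filament gene of reactive and white matter astrocytes, was added after values had been seen. Astrocytes with Gfap (1477 cells) held 73.0 CPM of Hrh1 over pooled libraries (95% counting interval 65.2 to 81.4), and those without (4968 cells) held 119 (112 to 126), with the same direction in all 13 libraries. Adrb1 followed the same direction in 11 of 13 libraries, with 11.03 CPM (8.16 to 14.6) in astrocytes with Gfap and 23.7 (20.8 to 27.0) in those without. For Adra2a, 41.7 CPM (35.9 to 48.1) and 37.97 (34.2 to 42.0) in the same order gave overlapping intervals. The intervals cover counting error and not the spread between libraries. Splits of the same kind were made in precursors and microglia. Precursors with Top2a, a gene of dividing cells (110 cells), held 40.2 CPM of Chrna4 (24.2 to 62.8), and those without held 90.6 (85.3 to 96.1), with the same direction in 4 of 4 libraries that could be compared. Microglia with Mrc1, a gene of macrophages at the brain's borders (128 cells), held 0 Hrh2 UMIs (95% counting interval 0 to 10.7 CPM). Those without held 11.7 CPM (9.34 to 14.4), so the intervals overlapped. The 7 Hrh1 UMIs of microglia with Mrc1 gave 20.4 CPM (8.196 to 42.0), against 1.09 CPM (0.469 to 2.14) in those without. This direction was seen in 3 of 7 libraries and the opposite in 2.

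The windows upstream of Hrh3, Htr5a and Hrh1 are shown. Hrh3 and Htr5a are the only members with a match to the letters searched below, and Hrh1 is shown as a member without. Hrh3 was found almost only in neurons, Htr5a in neurons and precursors, and Hrh1 was highest in astrocytes. Each line is the 250 bases before the annotated start from RefSeq on GRCm38.p6, 5′ to 3′ along the gene. RE1 is the element bound by REST, a repressor known for keeping neuronal genes off in other cells. Capitals mark the right end of the RE1 core, found on the opposite strand in Hrh3 and as printed in Htr5a, and Hrh1 has no match.
Hrh3, chr2:180104408-180104657, minus strand: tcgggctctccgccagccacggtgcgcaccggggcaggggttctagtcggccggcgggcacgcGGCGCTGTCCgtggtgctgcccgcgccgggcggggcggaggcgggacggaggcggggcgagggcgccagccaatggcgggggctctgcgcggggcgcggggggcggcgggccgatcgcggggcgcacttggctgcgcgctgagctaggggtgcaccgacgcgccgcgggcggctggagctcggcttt
Htr5a, chr5:27841697-27841946, plus strand: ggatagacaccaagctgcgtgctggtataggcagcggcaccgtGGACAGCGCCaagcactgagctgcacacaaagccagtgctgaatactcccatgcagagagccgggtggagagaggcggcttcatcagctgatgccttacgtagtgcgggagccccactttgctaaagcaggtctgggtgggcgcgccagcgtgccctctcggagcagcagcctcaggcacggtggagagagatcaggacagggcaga
Hrh1, chr6:114397686-114397935, plus strand: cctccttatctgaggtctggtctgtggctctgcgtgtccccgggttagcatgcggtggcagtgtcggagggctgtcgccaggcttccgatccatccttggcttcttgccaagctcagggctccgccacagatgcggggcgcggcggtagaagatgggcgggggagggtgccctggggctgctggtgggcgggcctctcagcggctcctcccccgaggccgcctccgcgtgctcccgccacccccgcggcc
Of 35 members, 28 had 36 such windows. The right end of the core, searched on both strands, occurred in 2 of the 36, and in 0.0974% of 32851 windows of all genes. The windows of all other members, neuronal ones among them, had no match, so the printed lines do not tie the letters to a class. All letters were searched as exact matches, with no mismatch allowed. The start of the core, TTCAGCACC, occurred in 0 of the 36 and in 0.301% of all windows. The spaced RE1 core, which holds that start, occurred in 0 and in 0.00913%. In the Hrh3 line the letters at the place of that start are ggtgctgcc. Read on the opposite strand, they differ from it only in its first 2 letters. The Htr5a line reads agcggcacc at that place. A match of letters is a description and not evidence of a bound site.

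Receptors were then compared between transmitter types. Of 3615 neurons, 1371 (37.9%) had Slc32a1 and no Slc17a6 UMIs, 1255 (34.7%) had Slc17a6 and no Slc32a1 UMIs, 51 had both and 938 neither, and the last 2 sets stayed out. Counts were summed per library, and the types were compared within libraries by edgeR's quasi-likelihood test, with p-values adjusted by Benjamini-Hochberg across the 6191 genes that were tested, of which 17.6% were called (8.75% higher and 8.88% lower in Slc32a1 neurons). Of the 35 members 13 passed the filter on low counts, and of those 8 were called, 5 higher and 3 lower in Slc32a1 neurons. Median depth was 2275 UMIs in Slc32a1 and 2145 UMIs in Slc17a6 neurons. The 5 astrocyte markers summed to 95 to 1253 CPM in Slc32a1 and 108 to 853 CPM in Slc17a6 neurons, and the 5 oligodendrocyte markers to 243 to 834 and 299 to 2546 CPM in the same order. The lists of the other 5 classes averaged 14.9 to 56.3 CPM in Slc32a1 and 14.5 to 57.6 CPM in Slc17a6 neurons, and mural markers were at 0 in at least 1 library. Their part in the differences was not tested.

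Htr7, on the minus strand of chromosome 19 (35958734 to 36057507 on GRCm38), showed the largest change among the 13. It had 44.2, 64.0 and 106.5 CPM as lowest, median and highest in Slc32a1 neurons and 10.2, 22.0 and 49.8 CPM in Slc17a6 neurons. It was higher in Slc32a1 neurons in 13 of 13 libraries, and the ranges overlapped only between 44.2 and 49.8 CPM (log2 1.46 ± 0.18 SE, edgeR adjusted p = 6.47e-09). Htr2c had 257, 388 and 462.5 CPM in Slc32a1 neurons and 168, 258.5 and 412 CPM in Slc17a6 neurons (log2 0.64 ± 0.13, adjusted p = 0.00129). It was higher in 12 of 13 libraries, the exception being female replicate 1 with 257 CPM in Slc32a1 and 412 CPM in Slc17a6 neurons.

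Htr1b moved the other way from Htr7 and Htr2c. It had 13.5, 32.4 and 54.2 CPM as lowest, median and highest in Slc32a1 neurons and 6.49, 67.2 and 80.03 CPM in Slc17a6 neurons, and was lower in Slc32a1 neurons in 12 of 13 libraries (log2 -0.78 ± 0.17, edgeR adjusted p = 5.91e-04). Female replicate 1 was again the exception. Htr1a was higher in Slc32a1 neurons in 9 of 13 libraries, with 9.82, 48.6 and 77.8 CPM against 15.8, 27.8 and 54.3 CPM in Slc17a6 neurons (log2 0.60 ± 0.21, adjusted p = 0.0456). This call was lost when any 1 of these libraries was left out: male replicates 1, 2, 4, 5 and 6 and female replicates 1, 4 and 7 (edgeR adjusted p = 0.0583 to 0.114) and with DESeq2 (adjusted p = 0.162).

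Htr3a did not pass the filter, so its difference was tested only in the fit without it, where 9.57% of 16450 genes were called. It had 93 UMIs in Slc32a1 and 4 in Slc17a6 neurons, with 0, 17.5 and 56.9 CPM and 0, 0 and 6.33 CPM as lowest, median and highest. It was higher in Slc32a1 neurons in 12 of 13 libraries (log2 4.05 ± 0.51, edgeR adjusted p = 1.88e-13), and male replicate 1, with 0 against 6.33 CPM, was the exception. That fit called 3 more members that the filter had left out: Htr1f (67 and 29 UMIs, log2 1.09 ± 0.38, adjusted p = 0.0413), Chrna7 (60 and 21 UMIs, 1.399 ± 0.41, 0.0113) and Chrna3 (12 and 43 UMIs, -1.70 ± 0.52, 0.0146), with the Slc32a1 count given before the Slc17a6 count.

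Drd1a was lower in Slc32a1 neurons, with 16.2, 36.3 and 54.1 CPM as lowest, median and highest against 35.7, 68.4 and 98.7 CPM in Slc17a6 neurons (log2 -0.78 ± 0.16, edgeR adjusted p = 2.56e-04). The direction held in 12 of 13 libraries, and in female replicate 1 the levels were 54.1 and 35.7 CPM. Drd5 had 5 UMIs in Slc32a1 and 18 in Slc17a6 neurons, and Drd2 20 and 9, neither past the threshold in the unfiltered fit (log2 -1.59 ± 0.80, adjusted p = 0.259, and 0.93 ± 0.69, adjusted p = 0.553).

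Among adrenergic receptors, Adra2a was higher in Slc32a1 neurons in 13 of 13 libraries. It had 25.5, 46.2 and 104 CPM as lowest, median and highest in Slc32a1 neurons and 8.85, 24.4 and 47.5 CPM in Slc17a6 neurons (log2 0.998 ± 0.20, edgeR adjusted p = 1.17e-04). Adrb1 was lower in Slc32a1 neurons in 10 of 13 libraries, with 18.5, 37.4 and 63.9 CPM against 32.9, 53.2 and 94.98 CPM in Slc17a6 neurons (log2 -0.52 ± 0.17, adjusted p = 0.0276). Its ranges overlapped over most of their length, and the call was lost when any 1 of male replicates 1, 3 and 6 and female replicates 3 and 6 was left out (edgeR adjusted p = 0.0519 to 0.0773), with DESeq2 (0.0943) and without neurons over 10000 UMIs (0.144). Adra1a gave no call (log2 -0.09, interval -0.46 to 0.28).

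Hrh3 had 43.9, 80.3 and 113 CPM as lowest, median and highest in Slc32a1 neurons and 20.8, 44.3 and 79.7 CPM in Slc17a6 neurons, and was higher in Slc32a1 neurons in 10 of 13 libraries (log2 0.64 ± 0.17, edgeR adjusted p = 0.00454). Hrh1 did not pass (log2 0.23, interval -0.07 to 0.54). Neither did Chrm1 (0.04, interval -0.20 to 0.28), Chrm2 (-0.03, interval -0.65 to 0.60) or Chrnb2 (0.08, interval -0.22 to 0.38), with 95% intervals on the log2 scale. The interval of Chrm2 was the widest of these.

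**Figure D3:**
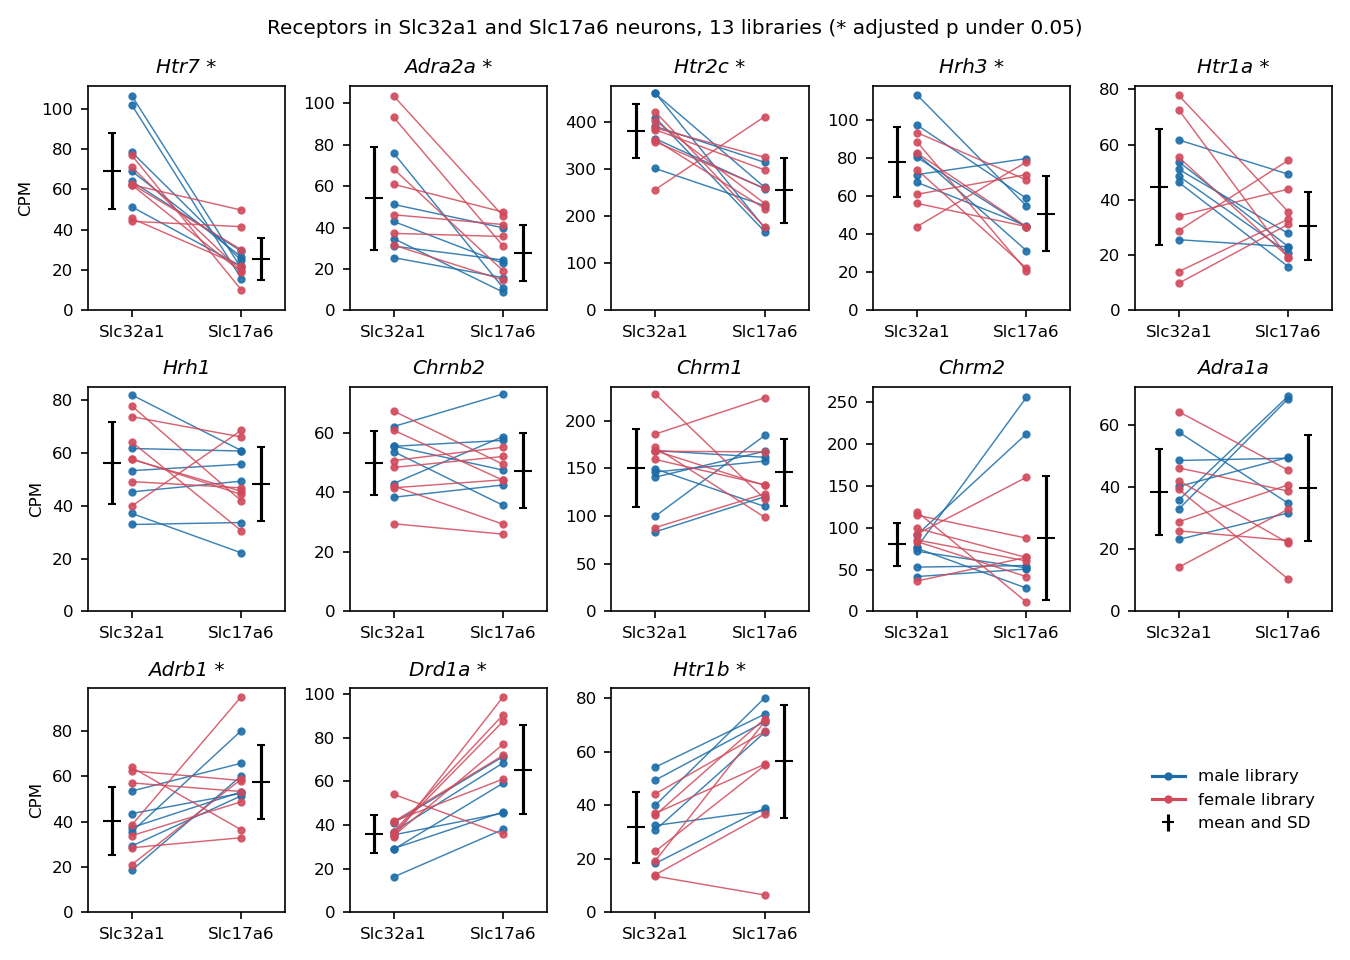
CPM (y axis) of the 13 receptor genes that passed the filter in Slc32a1 neurons (left) and Slc17a6 neurons (right), with a line for each of 6 male and 7 female libraries and the mean and SD beside them. Lines fall from left to right in all 13 libraries for Htr7 and Adra2a and rise in 12 of 13 for Drd1a and Htr1b, and a star marks an edgeR adjusted p under 0.05.

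Receptors that couple to the same G protein differed in direction. Of the Gs-coupled receptors Htr7 was higher and Drd1a and Adrb1 lower in Slc32a1 neurons, and of the Gi-coupled ones Adra2a, Hrh3 and Htr1a were higher and Htr1b lower. Of 39 listed G protein and effector genes in the table, 31 were tested, with a median log2 of -0.01 against 0.0013 over all genes, and 3 were called higher and 4 lower in Slc32a1 neurons (22.6%, near the 17.6% of all genes). Higher were the adenylyl cyclase Adcy2 (log2 0.49, 207 ± 48.8 CPM in Slc32a1 and 152 ± 51.1 CPM in Slc17a6 neurons) and the G protein subunits Gnai1 (0.36) and Gnal (0.35). Lower were the phosphatase inhibitor Ppp1r2 (-0.70), the G protein regulator Rgs7 (-0.67), the phospholipase Plcb1 (-0.56, 171 ± 44.2 and 253 ± 32.6 CPM) and the G protein-gated potassium channel Kcnj9 (-0.32), with edgeR adjusted p-values from 3.26e-05 to 0.0375.

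Of 14 listed genes of transmitter synthesis, transport and breakdown in the table, 4 were tested and 1 was called (25%, against 17.6% of all genes). Hnmt, the enzyme that inactivates histamine, was higher in Slc32a1 neurons in 12 of 13 libraries, at 78.8 ± 14.2 CPM against 47.3 ± 15.4 CPM in Slc17a6 neurons (log2 0.81 ± 0.14, edgeR adjusted p = 1.83e-05), the same direction as Hrh3. The breakdown enzymes Maoa (log2 0.35, adjusted p = 0.208) and Ache (0.24, adjusted p = 0.0946) did not pass. Of the synthesis genes Ddc, which acts in making both dopamine and serotonin, had 262 UMIs in neurons, Hdc (histamine) 23 and Th (dopamine and noradrenaline) 18. The vesicular transporter Slc18a2 had 56, and the uptake transporters Slc5a7 (choline) and Slc6a3 (dopamine) had 29 and 13.

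Nicotinic receptor partners, proteins known to bind or help assemble the channel, were called in 6 of 8 tested genes. This was 75%, against 17.6% of all genes, and their median log2 was -0.26, against 0.0013 over all genes. Tmem35, a chaperone of the receptor, was higher in Slc32a1 neurons (log2 0.69, 574 ± 116 CPM in Slc32a1 and 358 ± 48.3 CPM in Slc17a6 neurons), as was Ly6h (0.42). Lypd1 (-0.65, 332 ± 95.8 CPM in Slc32a1 and 527 ± 128 CPM in Slc17a6 neurons), Lynx1 (-0.43) and Ywhah (-0.38) were lower, with edgeR adjusted p-values of these 5 genes from 3.47e-09 to 0.0142. These genes also have roles outside nicotinic receptors.

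Finer neuron groups were described by gating on 1 gene, at 3 or more UMIs for peptides and 1 or more for Six3, Slc17a7 and Trp73. The gates overlap and are not cell types, and no test was made. Htr2c reached 957 ± 385 CPM in Npy neurons (SD, n = 7 libraries with 10 or more such cells), 774 ± 190 in Sst neurons (n = 12) and 478.5 ± 120 in Tac1 neurons (n = 13), against 305 ± 41.5 CPM in all neurons. The 255 Sst neurons held 20.9% of the Htr2c UMIs, against 8.51% of all neuronal UMIs (7.05% of neurons). In contrast, Htr2c had 56.0 ± 62.0 CPM in Six3 neurons (n = 5) and 20.3 ± 18.6 CPM in Trp73 neurons (n = 8). Over pooled libraries Six3 neurons held 34.8 CPM, from 17 UMIs, and Trp73 neurons 67.2 CPM, so the values in both gates moved with the weight of single libraries. Of the 138 Trp73 neurons 0 were in the Slc32a1 group and 116 in the Slc17a6 group, and of the 135 Npy neurons 113 and 6 in the same order.

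Adra2a had its highest level in Six3 neurons, with 162 ± 62.7 CPM (n = 5), and the 114 such neurons (3.15%) held 21.9% of its UMIs and 4.28% of all neuronal UMIs. It was low in Tac1 neurons (10.1 ± 9.91 CPM, n = 13) and Sst neurons (10.7 ± 21.5, n = 12), of which 252 of 456 and 210 of 255 were in the Slc32a1 group. Hrh3 in Six3 neurons was 95.3 ± 16.5 CPM. Npy neurons held 0 Htr5b UMIs, and a count of 0 allows up to 3.

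Among gates made up mainly of Slc17a6 neurons, Adcyap1 neurons held 107 ± 59.8 CPM of Drd1a and 113 ± 83.3 CPM of Htr1b (n = 13), against 45.7 ± 8.62 and 38.9 ± 13.5 CPM in all neurons. They held 28.4% of the Drd1a and 29.7% of the Htr1b UMIs, against 13.1% of all neuronal UMIs (7.91% of neurons). Htr5b stood at 108 ± 85.4 CPM in Trh neurons (n = 6) and 53.2 ± 54.2 CPM in Slc17a7 neurons (n = 11), and at 2.73 ± 6.32 CPM in Tac1 neurons. The 141 Trh neurons held 29.0% of the Htr5b UMIs, against 6.45% of all neuronal UMIs. Trp73 neurons held 4 Chrm1 and 3 Drd1a UMIs among 138 cells at a median depth of 3419 UMIs.

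**Figure D4:**
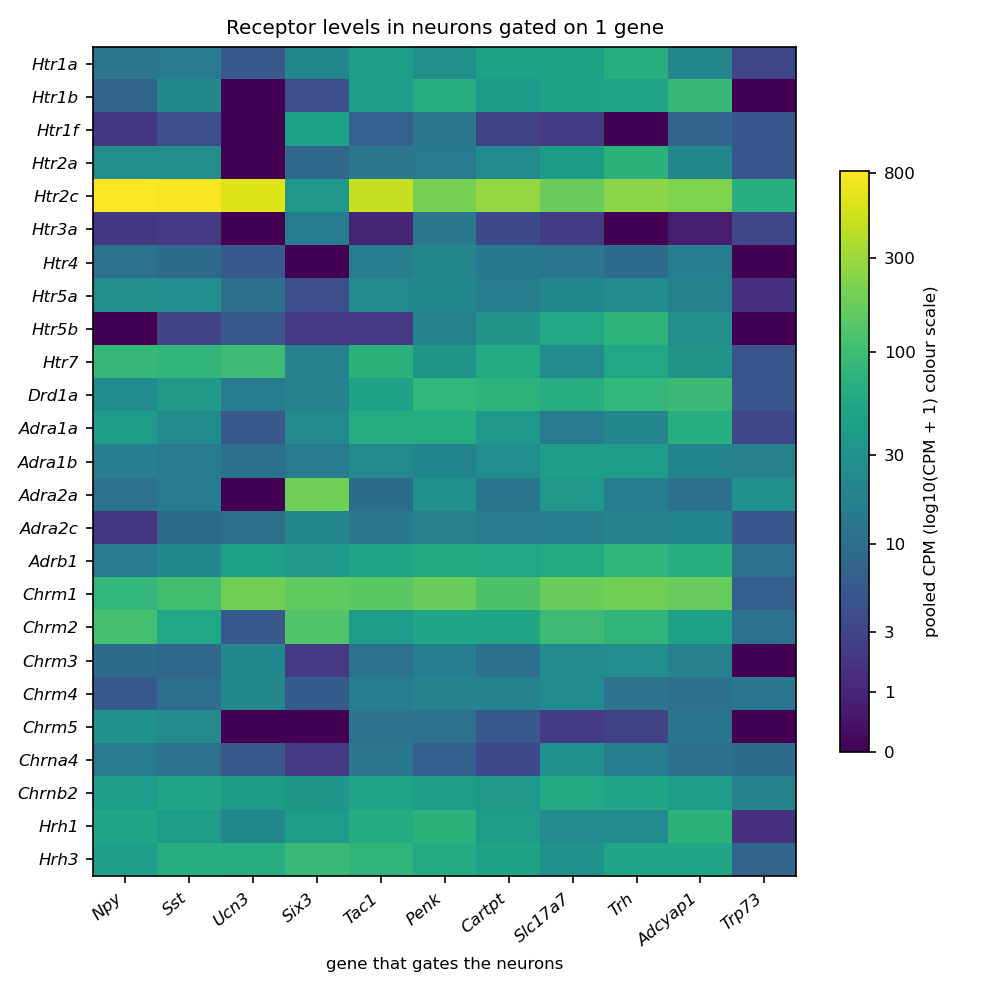
Pooled CPM over all libraries, on a log10(CPM + 1) colour scale, of receptor genes with at least 100 neuronal UMIs (rows) in neurons gated on 1 gene (columns). Htr2c is highest under Npy and Sst, Adra2a under Six3, and the Trp73 column is dark for Chrm1 and Drd1a.

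The sexes were compared in each class by the same edgeR test, and 0 members were called in any of them. In neurons 21 of 35 members passed the filter, 0 were called against 0.0623% of 9635 genes, DESeq2 and limma voom also called 0, and 4 had an unadjusted edgeR p under 0.05, against 6.13% of all genes. Over the 21 members the median log2 difference, male minus female, was -0.16, against -0.01 over all genes tested. This median was not tested, and it moved with single libraries. It was -0.18 without male replicate 2, 0.01 without male replicate 1, and -0.09 with limma voom. Summed over all 35 members, neurons held 1151 ± 162 CPM in the 6 libraries from males and 1182 ± 142 CPM in the 7 from females.

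Htr5b had the largest difference, with 6.31, 11.7 and 18.8 CPM as lowest, median and highest in male neurons and 10.00, 16.6 and 51.7 CPM in female neurons (log2 -0.98 ± 0.33, edgeR unadjusted p = 0.00661, adjusted p = 0.693). Female replicates 2 and 6 held the highest values, 31.2 and 51.7 CPM, and the other 5 female libraries lay at 10.00 to 21.0 CPM. Trh neurons, in which Htr5b is high, had enough cells in 6 libraries only, and their part in this value was not tested. Drd1a (log2 -0.39 ± 0.16) and Adra2a (-0.44 ± 0.21) were the others toward lower male values with an unadjusted edgeR p under 0.05, and Adra1a (0.41 ± 0.19) the 1 toward higher (adjusted p = 0.770 to 0.789). Narrower intervals were those from -0.30 to 0.21 for Htr2c, from -0.45 to 0.12 for Chrm1 and from -0.20 to 0.43 for Hrh3. A high count did not always give a narrow interval. That of Chrm2, with 929 UMIs in neurons, ran from -0.69 to 0.80, and that of Htr1b, with 451, from -0.21 to 0.82. The interval of Htr5b, with 193 UMIs, reached as far as -1.63.

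**Figure D5:**
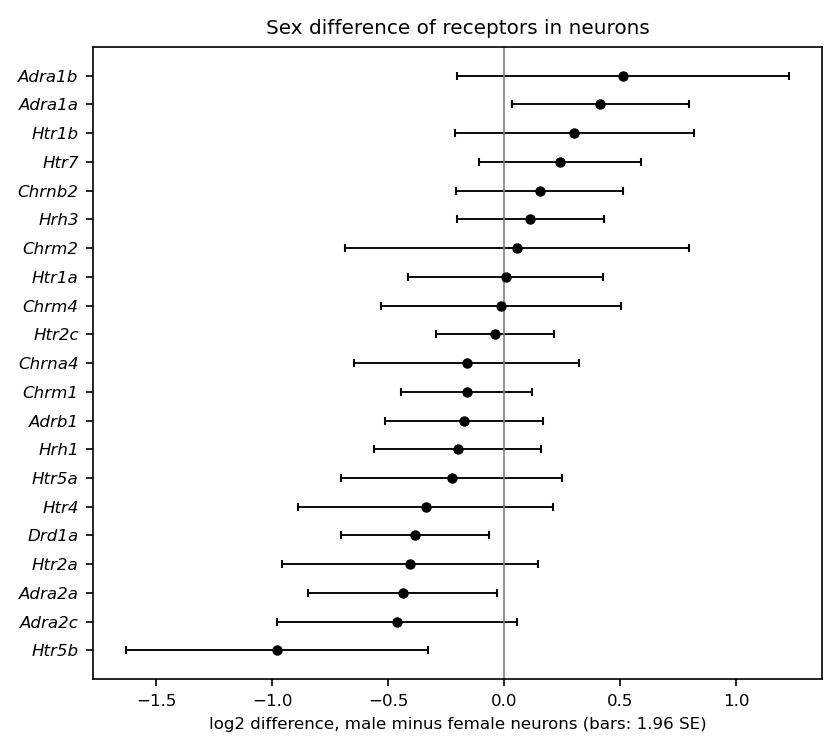
Log2 difference, male minus female, of 21 receptor genes in neurons (x axis), over 6 male and 7 female libraries. Bars are approximate 95% intervals from an SE worked back from edgeR's F statistic. No gene passed an adjusted p of 0.05, and Htr5b lies farthest from 0 at -0.98.

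Within Slc32a1 neurons 15 members were tested and 0 called (0.0892% of genes were), with 1 at an unadjusted edgeR p under 0.05 (8.05% of genes), and within Slc17a6 neurons 10 were tested and 0 called (0.0832% of genes were), also with 1 (3.98% of genes). DESeq2 called 0 in both. For the interaction of type and sex 16 members were tested (0 called against 0.0135% of 7386 genes, 0 with an unadjusted p under 0.05 against 4.49%, and 0 with DESeq2). Drd1a, for which the sexes differed by -0.40 ± 0.26 in Slc32a1 and -0.45 ± 0.23 in Slc17a6 neurons, had an interaction of 0.04 ± 0.34 (interval -0.64 to 0.71). Over the 16 members the intervals spanned -2.11 to 1.63, with the lowest bound in Adra1b (-0.94, interval -2.11 to 0.22), so interactions of that size were not excluded for every member.

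In glia too no member was called. In astrocytes 4 members were tested, against a background of 1.16% of genes called and 10.4% with an unadjusted p under 0.05, and Adra1a had the lowest unadjusted edgeR p (0.0199, log2 0.38 ± 0.16, adjusted p = 0.324), with 26.4, 48.6 and 55.3 CPM as lowest, median and highest in male astrocytes and 24.7, 32.8 and 39.3 CPM in those of females. The sum of the 35 members, most of it Hrh1, Adra1a and Adra2a, was 231 to 261 CPM in males (6 libraries) and 194 to 216 CPM in females (7 libraries), and these ranges did not overlap. In every other class the ranges of the same sum overlapped, as in microglia with 182 to 232 CPM in males and 147 to 206 CPM in females. By family, the astrocyte ranges overlapped for the adrenergic sum, with 97.5 to 122 CPM in males and 83.7 to 99.1 CPM in females. They also overlapped for the histamine sum, with 103 to 145 and 87.0 to 110 CPM in the same order. No test was made on these sums, and comparing them by sex was not planned beforehand. In astrocytes Ppp1r1b, an inhibitor of protein phosphatase 1 on the G protein effector list, was called lower in males (log2 -0.64, edgeR adjusted p = 8.65e-04).

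In oligodendrocyte precursors 7 members were tested (0.131% of genes were called, and 6.07% had an unadjusted p under 0.05). Chrm2 had 18.3, 21.8 and 33.3 CPM as lowest, median and highest in male and 19.0, 43.4 and 48.1 CPM in female precursors (log2 -0.63 ± 0.20, edgeR unadjusted p = 0.00212, adjusted p = 0.344). Of the 7 female libraries 4 lay above the male range and 3 within it. In microglia 2 members were tested (0.349% of genes were called, and 7.24% had an unadjusted p under 0.05), and Adrb1 had 41.8, 54.1 and 85.9 CPM in male and 27.0, 35.4 and 61.0 CPM in female microglia (log2 0.41 ± 0.19, edgeR unadjusted p = 0.0332, adjusted p = 0.622), with overlapping ranges. In oligodendrocytes, newly formed oligodendrocytes, endothelial and mural cells 0 members passed the filter, so sex was not tested there, and DESeq2 called 0 members in every class.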

How the data were processed

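Cells from 13 libraries were profiled by Drop-seq. The deposited table holds whole-number counts of UMIs per gene and cell, with the authors' class in each cell's name. Per the submitters' processing notes, bcl2fastq 2.17.1.14, STAR 2.5.0a and the mm10 build were used. How UMIs were collapsed, how cells were chosen and whether counting used strand are not given in the sources used here. Chrnb2, Htr1b, Chrm2 and Chrm1 overlap a gene on the opposite strand that is also in the deposited table. Hrh3, Htr3a, Htr5b, Drd5, Hrh2, Adrb3 and Chrm3 overlap an annotated gene on the opposite strand that is not in it. The counts of all these receptors may hold reads of the overlapping gene.

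Of 43388 cells, 24808 had at least 500 genes, and Scrublet (scanpy 1.11.5) removed 281 as doublets (1.13%). Counts were summed per library and class, or per library and transmitter type, from libraries with at least 10 such cells. They were tested with edgeR 4.0.16 (TMM, filterByExpr, robust quasi-likelihood test, threshold 0.05 after Benjamini-Hochberg adjustment over all genes), with the library as a block between transmitter types. DESeq2 1.42.0 and limma 3.58.1 were alternatives, with other filters on cells and genes, other gates and each library left out. The edgeR steps were tested on simulated data. Intervals of pooled levels are exact Poisson 95% intervals, which cover counting error only, as does the floor of 3 UMIs. No column of per-cell values was left unmapped to a library.

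Receptors with at least 100 UMIs in neurons or in another class were named with their values, by library where they passed the threshold or were among the 10 with the most neuronal UMIs, and the others were given by their UMIs. Listed genes were named where they passed the threshold between transmitter types. Maoa, Ache, Ddc, Th, Hdc, Slc18a2, Slc6a3, Slc5a7 and, in astrocytes, Ppp1r1b were named after their values were seen, as were the by-library values of receptors given outside that rule. Receptors and gene lists were chosen with earlier results of these data known. A few genes counted here are not reported by name.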

Additional observations from a re-analysis of the deposited data

Results flagged for a closer look

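Within the 6 male and within the 7 female libraries, a single library far from the others was looked for in 64 groups of receptor levels. Of these, 5 were found, where chance gives about 1 in 20. Chrnb2 was highest in the neurons of male replicate 6, at 65.93 CPM, with 48.3 CPM in the next male library. Adrb1 was highest in the Slc17a6 neurons of female replicate 6, at 94.98 CPM, with 58.65 CPM in the next, and without that library the Slc32a1 difference of Adrb1 was not called (edgeR adjusted p = 0.0773). Htr1a was highest in the Slc17a6 neurons of male replicate 4, at 49.27 CPM, with 27.84 CPM in the next. In Slc32a1 neurons female replicate 1 stood apart in both Drd1a, where it was highest at 54.1 CPM with 41.67 CPM in the next, and Htr2c, where it was lowest at 257 CPM with 358.5 CPM in the next. The calls of Drd1a and Htr2c between transmitter types held without it.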

How the results depend on the processing

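Between transmitter types, Adra2a, Drd1a, Hrh3, Htr1b, Htr2c and Htr7 were called under all 24 settings tried, Adrb1 was lost in 9 and Htr1a in 11 of those with a value. Without the filter on low counts 8 members were higher and 4 lower, against 5 and 3 with it, and 9.57% of genes were called, against 17.6%. Leaving out 1 library at a time gave 4 to 5 members higher and 2 to 3 lower, and 896 to 1197 genes called. With no replicate block for the library, Adrb1 (edgeR adjusted p = 0.0581) and Htr1a (0.0603) lost their calls. Members called between the sexes stayed at 0 throughout, and the genes called between the sexes in neurons numbered 6 to 9 when 1 library was left out. For the transmitter type by sex interaction, where 1 gene was called, DESeq2 called 0 and all deposited cells gave 2, and in oligodendrocytes DESeq2 called 37 genes between the sexes, against 22. At a minimum of 200 UMIs, which left 19 members, 13 were highest in neurons and 11 lay above every other class in all libraries, against 23 and 20 at 50 UMIs. The sexes share replicate numbers, but same-numbered libraries did not deviate together (correlations -0.06 to 0.08, and 1 of 6 numbers was its libraries' best match). No pairing by number was thus seen, though a small shared effect could be missed with 6 numbers. With the replicate block the sexes differed in 8 genes and 0 members. With 189 to 428 neurons per library, the 95% intervals of the 21 members between the sexes in neurons spanned -1.63 to 1.23 on the log2 scale.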
